A study of Mus musculus with 24 samples.

Results

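The tumour suppressor p53, encoded by Trp53, and 9 of its target genes (Mdm2, Cdkn1a, Ccng1, Zmat3, Bax, Aen, Eda2r, Phlda3 and Sesn2) were read out by gene symbol from a table of 55938 genes. All 10 were found, each in 1 row, and all 10 passed the filter on low counts in every comparison. These genes were chosen by a readout of the same libraries: target transcripts were already known to be low in late gliomas. The contrasts of late glioma with the other glioma stages are therefore given as a description: where a count of calls is printed for them it stands beside the share of all genes, and nothing is read from it. Tests are kept for contrasts without late glioma libraries, which enter some of the fits only through the estimate of the spread. Early gliomas were the other side of the contrast that chose the genes. Tests that use early gliomas are therefore not independent of that choice.

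p53 is a transcription factor that accumulates when DNA is damaged, an oncogene is active or growth is stressed, and it then activates genes that stop the cell cycle, trigger cell death, repair DNA and adapt metabolism. Mdm2 is itself a target and marks p53 for degradation, which closes a negative feedback loop, and the Arf product of Cdkn2a inhibits Mdm2. In gliomas this pathway is often disabled by loss of p53, gain of Mdm2 or Mdm4, or loss of the Cdkn2a locus. Target transcripts are therefore often read as a record of p53 activity, which was not itself measured here. The Trp53 transcript says little about that activity, because p53 is controlled mostly as a protein.

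Gliomas were raised in mice by transferring PDGFB, a growth factor ligand, into the telencephalic ventricles of embryos in utero, and all groups share this treatment. From each of 12 animals, fluorescent glioma cells and non-fluorescent surrounding cells of the dissected tumour were sorted, which gave 24 libraries of polyA RNA. The asymptomatic stage had 4 tumours at 33 to 34 days after transduction (3228A, 3228B, 3228D and 3229B). The early symptomatic stage had 4 at 35 to 50 days (3108C, 3108D, 3109D and 3145A), and the late symptomatic stage had 4 at 100 to 175 days (3054A, 3054B, 3054C and 3057E). Values of a stage are listed below in this order of tumours. The early and late symptomatic stages were told apart by the letters that end the labels. Stage, day and the first digits of the tumour codes cannot be told apart. The glioma cells of 3057E are labelled as red and the others as green. The strain and the promoter driving PDGFB are not given in the sources used here.

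Library totals ranged from 9075510 to 15471149 counts, and levels are given as counts scaled to a common library size (CPM) by TMM over all 24 libraries. All 7 markers of oligodendrocyte precursor cells (OPC), the lineage such tumours resemble, were above 0 in every glioma library, with sums of 8960 to 15166 CPM. The surrounding cells were a mixture: 14 microglia markers summed to 2435 to 22555 CPM there, and OPC markers to 524 to 11002 CPM. In bulk samples fewer cells of a type and less RNA per cell cannot be told apart. Tumour 3057E stood apart. Its microglia markers reached a sum of 2639 CPM in glioma cells, whereas 3054A to 3054C had 61.8 to 115 CPM, and its mitosis markers to 265 CPM against 1918 to 3824 CPM. Codes 3108D and 3109D went against their labels. Xist, transcribed from the inactive X chromosome, stood at 1591 CPM in glioma 3108D but 2.08 CPM in surrounding 3108D, and at 1.89 CPM in glioma 3109D but 1079 CPM in surrounding 3109D. Both codes belong to the early stage, so stage groups are unaffected and only their pairs are in doubt. Unless stated otherwise, pairs are counted below as labelled.

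The promoter sequence is shown as context for targets that p53 can bind. Promoter windows from RefSeq (build GRCm38.p6, 250 bases before to 50 after a start) were searched on both strands for the p53 consensus site, a palindrome of 2 consensus half-sites. Up to 1 base of spacer and 1 mismatch in all were allowed, limits set after the windows had been seen. The table held 11 windows for 9 members, and Zmat3 was not among them. Bax, Ccng1 and Cdkn1a held such a site, against 0.177% of all 32851 windows. An exact half-site was present for 6 of the 9 members and in 8.36% of all windows. A match is a description of the letters only. The 3 windows are shown up to the gene's first annotated base, 5′ to 3′ on the gene's strand, with the site in capitals.
Bax, chr7:45466899-45467148, minus strand: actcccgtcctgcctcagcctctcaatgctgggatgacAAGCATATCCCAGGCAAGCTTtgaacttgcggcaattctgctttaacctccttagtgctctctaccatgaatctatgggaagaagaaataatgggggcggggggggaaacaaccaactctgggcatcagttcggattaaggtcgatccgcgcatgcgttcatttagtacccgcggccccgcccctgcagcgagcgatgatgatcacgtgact
Ccng1, chr11:40755312-40755536, minus strand: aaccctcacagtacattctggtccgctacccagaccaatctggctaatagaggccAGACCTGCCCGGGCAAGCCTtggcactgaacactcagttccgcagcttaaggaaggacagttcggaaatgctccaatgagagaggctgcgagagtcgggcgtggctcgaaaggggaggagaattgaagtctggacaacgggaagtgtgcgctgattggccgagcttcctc
Cdkn1a, chr17:29090729-29090975, plus strand: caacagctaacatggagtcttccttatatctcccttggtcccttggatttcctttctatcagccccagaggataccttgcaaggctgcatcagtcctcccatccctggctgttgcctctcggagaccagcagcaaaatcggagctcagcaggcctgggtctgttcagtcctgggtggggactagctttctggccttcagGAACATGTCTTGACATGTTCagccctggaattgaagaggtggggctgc
Each site had 1 mismatch, with 1 base of spacer in Bax and none in Ccng1 and Cdkn1a. It ended 192 bases before the first base of Bax, 151 before Ccng1 and 29 before Cdkn1a. The Bax site also lies within the annotated span of Gm45808, whose exons share 192 bases with those of Bax.

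Trp53 lies on chromosome 11 from 69580359 to 69591873 (GRCm38, GENCODE M21, plus strand). It stood at 54.00, 58.4, 40.3 and 46.9 CPM in asymptomatic glioma, 43.4, 41.9, 38.3 and 63.4 CPM in early and 76.6, 86.2, 101 and 45.7 CPM in late glioma. In surrounding cells it stood at 59.5, 53.5, 46.1 and 34.9, then 25.4, 38.8, 41.8 and 45.4, then 41.2, 53.6, 62.8 and 39.1 CPM. The late gliomas 3054A, 3054B and 3054C were the only glioma libraries above 63.4 CPM, and 3057E lay inside the range of the earlier gliomas. Before the late stage, glioma and surrounding cells did not differ beyond the spread for Trp53 (log2 fold change 0.17 ± 0.17, SE, n = 8 libraries each, edgeR adjusted p = 0.488), and glioma was higher in 5 of 8 pairs. Expected counts of Trp53 were not whole numbers in 24 of 24 libraries, so part of its reads was shared by estimate with other loci, and its pseudogene Trp53-ps was listed at 0.158 to 1.35 CPM.

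**Figure D1:**
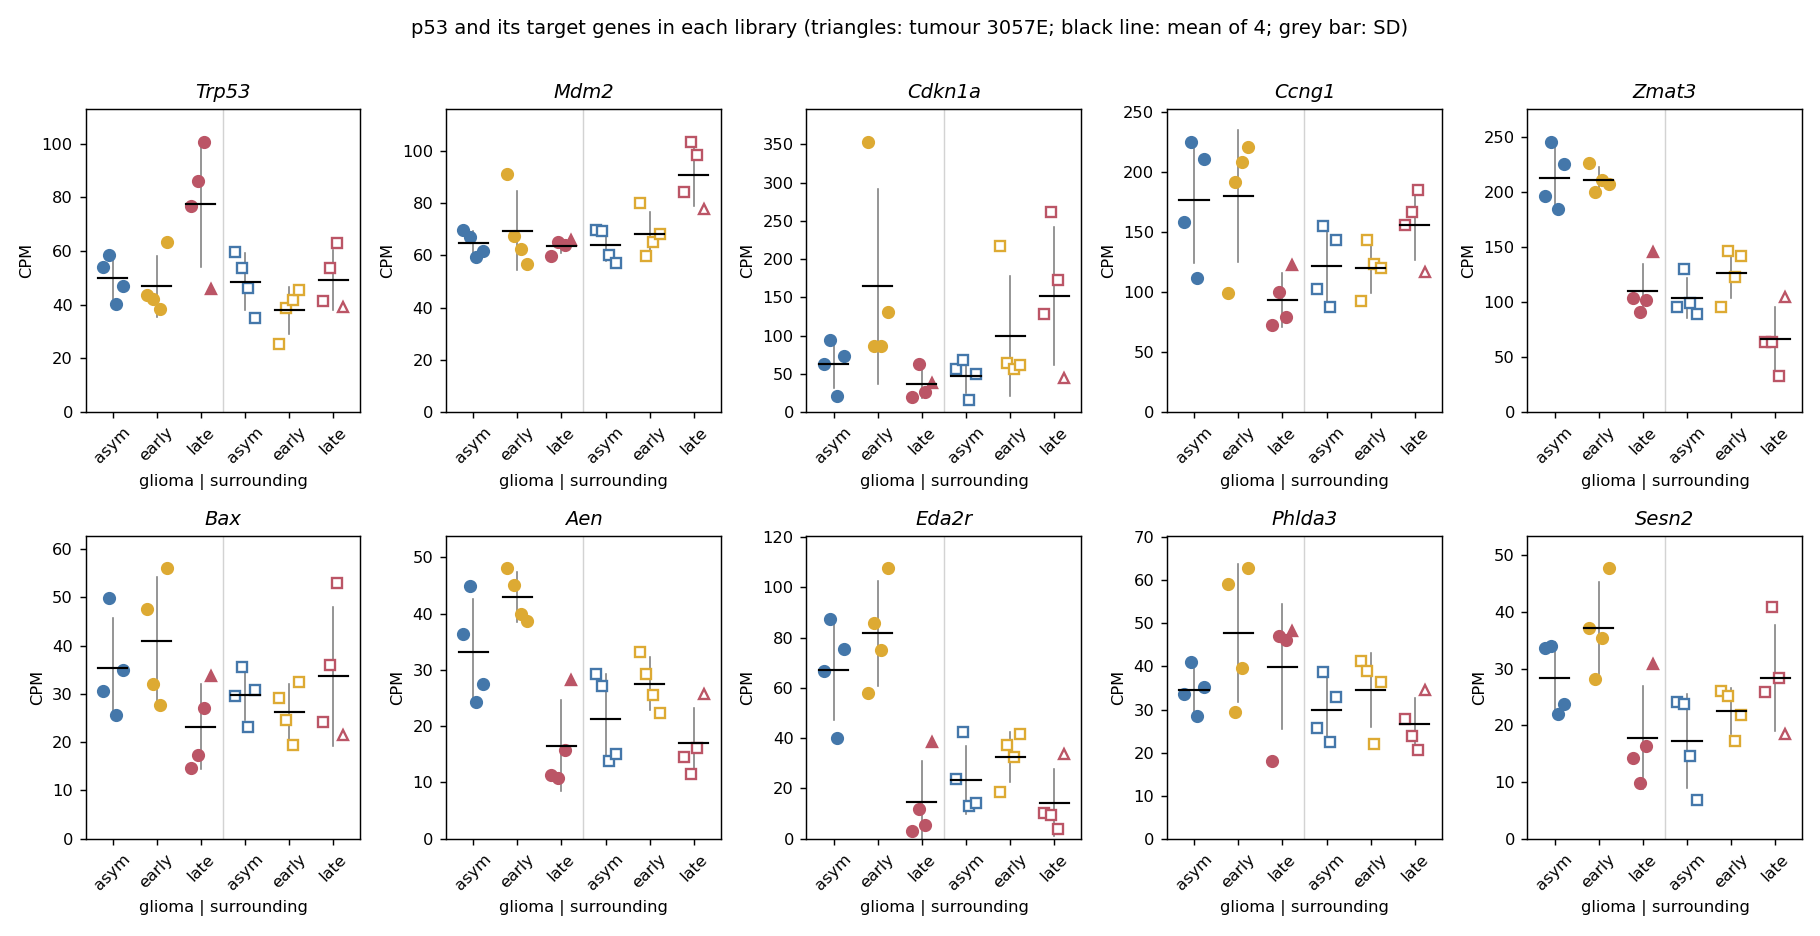
CPM of each gene (vertical axes from 0) by stage (asym, early, late) in glioma (filled) and surrounding cells (open), 4 libraries per group, with the mean as a black line and the SD as a grey bar. Zmat3 in late glioma reached at most 145 CPM, below the 184 CPM of the lowest earlier glioma, while Trp53 reached 101 CPM in late glioma 3054C.

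Mdm2, the ubiquitin ligase that degrades p53 (chromosome 10, 117688875 to 117710758, minus strand), varied least of the 10 across gliomas. It stood at 69.7, 67.2, 59.4 and 61.8 CPM in asymptomatic, 91.1, 67.6, 62.4 and 56.8 CPM in early and 59.6, 65.03, 64.1 and 65.95 CPM in late glioma, and the 3 stages overlapped. Surrounding cells held 69.8, 69.2, 60.1 and 57.2 CPM, then 79.9, 59.7, 65.2 and 68.1 CPM, then 84.2, 104, 98.3 and 77.7 CPM in the late stage. All 4 late pairs had less Mdm2 in glioma than in surrounding cells, at 0.628 to 0.849 of the surrounding level. Before the late stage the difference was 0.02 ± 0.11 (adjusted p = 0.92), with glioma higher in 3 of 8 pairs.

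Cdkn1a encodes p21, the inhibitor of cyclin-dependent kinases that carries out much of the p53 arrest (chromosome 17, 29090976 to 29100727, plus strand). Its levels were uneven within stages, at 62.7, 93.7, 21.1 and 72.8 CPM in asymptomatic, 354, 86.3, 86.8 and 131 CPM in early and 20.3, 63.3, 26.8 and 38.2 CPM in late glioma. In surrounding cells it stood at 55.7, 67.9, 16.3 and 50.01 CPM, then 217, 64.4, 55.9 and 60.96 CPM, then 129, 261, 172 and 44.9 CPM. Tumour 3108C was highest of its stage in both populations, and asymptomatic glioma 3228D overlapped with the late gliomas. Glioma held more Cdkn1a than its own surrounding cells in 8 of 8 pairs before the late stage, by 1.13 to 2.14 times, and less in 4 of 4 late pairs, at 0.156 to 0.851 of the surrounding level. The group difference before the late stage did not pass the test (0.56 ± 0.42, adjusted p = 0.34). An annotated model on the opposite strand shares 273 exon bases with Cdkn1a, and the strand setting of the counting is not given in the sources used here.

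Ccng1, cyclin G1, which recruits a phosphatase to Mdm2 (chromosome 11, 40748552 to 40755311, minus strand), was higher in glioma than in surrounding cells before the late stage (0.56 ± 0.19, adjusted p = 0.0307, higher in 8 of 8 pairs). Glioma libraries held 158, 225, 111 and 211 CPM in the asymptomatic, 99.6, 192, 208 and 221 CPM in the early and 72.6, 100.0, 79.3 and 123 CPM in the late stage. Surrounding libraries held 102, 155, 87.2 and 144 CPM, then 92.8, 144, 124 and 119.6 CPM, then 156, 167, 185 and 116 CPM. Early glioma 3108C lay at the level of the late gliomas, so the stages overlapped. In 3054A, 3054B and 3054C glioma cells had 0.428 to 0.601 of the level in their surrounding cells, whereas in the other 9 pairs glioma was higher.

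Zmat3, a zinc finger protein that binds RNA and steers splicing (chromosome 3, 32334792 to 32366014, minus strand), showed the steadiest difference. Asymptomatic gliomas held 196, 246, 184 and 226 CPM and early gliomas 226, 199.9, 211 and 207 CPM, against 103, 91.1, 102 and 145 CPM in late gliomas. Surrounding cells held 95.3, 129.8, 99.03 and 89.3 CPM, then 95.3, 146, 123 and 141 CPM, then 63.2, 63.5, 32.5 and 104 CPM. All 8 earlier gliomas lay above all 12 surrounding libraries and above all 4 late gliomas. Zmat3 rose in glioma over surrounding cells before the late stage by 0.89 ± 0.17 (adjusted p = 0.000424), and glioma was higher in 12 of 12 pairs, the late ones included. It was the only member that passed this test in the asymptomatic stage alone (1.04 ± 0.25, adjusted p = 0.00523) and in the early stage alone (0.74 ± 0.24, adjusted p = 0.0478). It also passed in 23 of 23 alternatives run. Early gliomas had a part in the choice of the genes. The joint test, the test in the early stage alone and the alternatives that use early gliomas are therefore not independent of that choice.

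Among the genes of cell death, Eda2r, a receptor of the TNF receptor family (chromosome X, 97333840 to 97377216, minus strand), had the widest range across gliomas as a ratio of highest to lowest. It stood at 66.7, 87.2, 39.9 and 75.2 CPM in asymptomatic, 57.8, 85.9, 75.2 and 108 CPM in early and 2.87, 11.7, 5.31 and 38.4 CPM in late glioma. Surrounding cells held 23.8, 42.5, 13.1 and 14.4 CPM, then 18.7, 37.1, 32.6 and 41.6 CPM, then 10.2, 9.61, 3.79 and 33.9 CPM. The late gliomas did not overlap with the earlier ones, but 3057E at 38.4 CPM lay just under asymptomatic 3228D at 39.9 CPM. Eda2r rose in glioma over surrounding cells before the late stage (1.42 ± 0.44, adjusted p = 0.0206), by 2.05 to 5.24 times in the 8 pairs.

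Aen, a nuclease that takes part in apoptosis (chromosome 7, 78895854 to 78911209, plus strand), stood at 36.4, 44.9, 24.2 and 27.4 CPM in asymptomatic, 48.1, 45.1, 39.8 and 38.7 CPM in early and 11.4, 10.8, 15.8 and 28.1 CPM in late glioma. Its surrounding levels were 29.2, 27.1, 13.9 and 14.98 CPM, then 33.2, 29.2, 25.6 and 22.2 CPM, then 14.5, 11.4, 16.2 and 25.8 CPM. Late gliomas 3054A to 3054C lay under every earlier glioma, and 3057E lay among the asymptomatic ones. Before the late stage Aen was higher in glioma (0.64 ± 0.22, adjusted p = 0.0347, 8 of 8 pairs). Bax, which opens the outer mitochondrial membrane (chromosome 7, 45461697 to 45466898, minus strand), stood at 30.5, 49.97, 25.7 and 34.9 CPM, then 47.7, 32.1, 27.8 and 56.05 CPM, then 14.6, 17.4, 27.1 and 33.7 CPM in glioma. In surrounding cells it stood at 29.5, 35.6, 23.1 and 30.8 CPM, then 29.1, 24.6, 19.4 and 32.4 CPM, then 24.1, 36.1, 52.9 and 21.5 CPM. Bax was higher in glioma in 8 of 8 earlier pairs, yet the difference of 0.44 ± 0.22 did not pass the test (adjusted p = 0.14). In 3054A to 3054C it had 0.484 to 0.607 of the surrounding level. Its expected counts were not whole in 14 of 24 libraries. Those of Cdkn1a were not whole in 23, of Mdm2 in 19 and of Zmat3 in 5.

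Sesn2, a sestrin that restrains mTORC1 under stress (chromosome 4, 132492032 to 132510501, minus strand), stood at 33.6, 33.9, 22.1 and 23.8 CPM in asymptomatic, 37.2, 28.1, 35.4 and 47.7 CPM in early and 14.3, 9.84, 16.4 and 30.8 CPM in late glioma. Surrounding cells held 24.03, 23.7, 14.6 and 6.77 CPM, then 26.1, 25.2, 17.2 and 21.8 CPM, then 25.9, 40.8, 28.4 and 18.4 CPM. Sesn2 rose in glioma over surrounding cells before the late stage (0.72 ± 0.25, adjusted p = 0.037, 8 of 8 pairs), and in 3054A to 3054C glioma had 0.241 to 0.577 of the surrounding level. Phlda3, which competes with Akt for membrane lipids (chromosome 1, 135766119 to 135769136, plus strand), stood at 33.7, 40.99, 28.6 and 35.2 CPM, then 59.3, 29.4, 39.6 and 62.8 CPM, then 18.2, 47.05, 46.2 and 48.3 CPM in glioma. Its surrounding levels were 25.6, 38.7, 22.5 and 32.9 CPM, then 41.2, 38.9, 22.1 and 36.3 CPM, then 27.8, 23.9, 20.5 and 34.6 CPM. Late glioma 3054A was the lowest of the 12 gliomas, whereas the other 3 late gliomas lay among the earlier ones. Phlda3 did not pass the test before the late stage (0.34 ± 0.21, adjusted p = 0.234, 7 of 8 pairs).

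Glioma was then set against surrounding cells over the asymptomatic and early stages together, to learn whether target transcripts were higher in tumour cells before the late stage. Early gliomas had a part in the choice of the genes, so the count of calls is not independent of it. Of the 10 members 5 rose (Zmat3, Eda2r, Sesn2, Aen and Ccng1) and 0 fell, where 7.85% of 18810 genes tested were called higher and 18.6% lower. The median log2 fold change was 0.56 against 0.06 over all genes tested. Mdm2 at 0.02 had no settled sign: it was at -0.02 with DESeq2 and without 3057E and at -0.04 without 3108D and 3109D, and the other 9 were above 0. Without tumours 3108D and 3109D, whose pairs are in doubt, glioma was still higher in 6 of 6 pairs for Zmat3, Eda2r, Sesn2, Aen, Ccng1, Cdkn1a, Bax and Phlda3. In that fit, with fewer libraries, 1 member was called, Zmat3. The count was 1 without a filter on low counts, 2 at a minimum count of 50 and 3 with the size factors of DESeq2. Leaving out 1 of 7 earlier tumours lowered the count below 4: to 3 without 3108C or 3228D, to 2 without 3109D, 3228A or 3228B, and to 1 without 3145A or 3229B. The total of all genes called also varied over the alternatives, in the range given at the end. These member counts are given without that share, and a loss particular to the members was not tested.

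**Figure D2:**
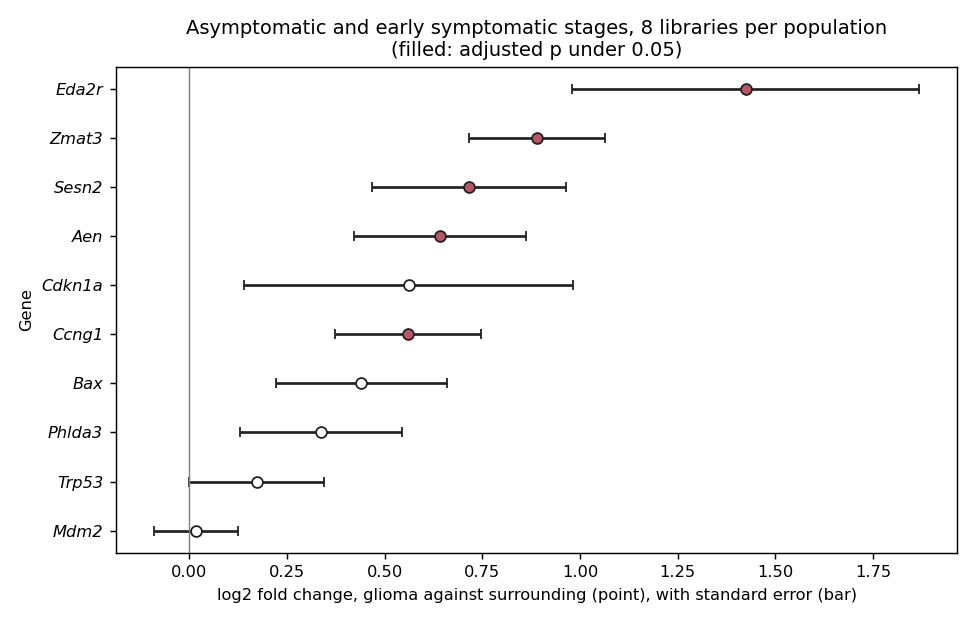
Log2 fold change of glioma against surrounding cells over the asymptomatic and early symptomatic stages (points) with its standard error (bars), 8 libraries per population, for the 10 genes. The 5 filled points passed the test and run from 0.56 for Ccng1 to 1.42 for Eda2r, while Mdm2 lies at 0.02.

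Markers of other cells moved with this comparison. All 14 microglia markers were lower in glioma (median -5.31), as were 7 of 7 endothelial and 7 of 7 oligodendrocyte markers and 8 of 10 immediate early genes, while 4 of 10 mitosis markers were higher. No microglia marker was at 0 in any library. OPC markers did not pass the test in any of 7 cases, with a median of 0.79, and their sums overlapped between the populations, at 10936 to 15166 CPM in earlier gliomas and 3720 to 11002 CPM in earlier surrounding cells. The part of this mixture in the higher target transcripts of glioma cells was not tested.

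Between the asymptomatic and early stages the genes did not separate. In glioma 0 of 10 members were called (0% of 16494 genes tested). Cdkn1a had the only unadjusted p under 0.05 among them, with 1.39 ± 0.54 in early against asymptomatic glioma (adjusted p = 0.936), where glioma 3108C stood at 354 CPM and the other early gliomas at 86.3 to 131 CPM. DESeq2 and limma voom called 0 members as well, and 0% and 0.00606% of all genes. With edgeR 810 had an unadjusted p under 0.05. In surrounding cells 0 of 10 were called too (0% of 17616), with 0 members and 645 genes at an unadjusted p under 0.05. A difference in stage effect between the populations was not called for any member (0 of 10 called, 0% of 18810, and 0 members at an unadjusted p under 0.05). For Zmat3 that difference was -0.30 ± 0.34, and for Cdkn1a 0.33 ± 0.84.

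The late surrounding cells, which did not serve to choose the genes, were compared with the surrounding cells of the other stages. Against the early stage 0 of 10 members passed, where 1.48% of 17616 genes were called, and 3 members had an unadjusted p under 0.05. Against the asymptomatic stage 0 of 10 passed as well (0% called), with 2 members under 0.05, Cdkn1a (1.66 ± 0.60, adjusted p = 0.211) and Mdm2 (0.50 ± 0.17, adjusted p = 0.191). DESeq2 called 1 member in each, where it called 6.52% and 5.69% of all genes, and limma voom 5 and 3, where it called 29.5% and 23.3%. Leaving out tumour 3057E also changed these counts, and the share of all genes called changed with them. Without it, Zmat3 (-1.29 ± 0.27, adjusted p = 0.00988), Eda2r (-2.09 ± 0.49, adjusted p = 0.0147) and Aen (-1.01 ± 0.30, adjusted p = 0.0384) fell from early to late surrounding cells, where 18.9% of genes were called. From asymptomatic to late, also without 3057E, Cdkn1a (1.97 ± 0.54, adjusted p = 0.0318) and Mdm2 (0.56 ± 0.17, adjusted p = 0.0431) rose, and Zmat3 (-0.97 ± 0.27, adjusted p = 0.0319) and Eda2r (-1.58 ± 0.48, adjusted p = 0.0426) fell, where 16.4% of genes were called. Here the targets moved in opposite directions.

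Other markers moved along in the late surrounding cells. OPC markers summed to 2901, 1851 and 524 CPM in 3054A, 3054B and 3054C and to 8788 CPM in 3057E, against 4694 to 10335 CPM in early surrounding cells. Microglia markers summed to 14575, 17797 and 22555 CPM in the same 3 tumours and to 2435 CPM in 3057E. The immediate early genes, which respond quickly to stimuli and to tissue dissociation, summed to 2434, 6360 and 4395 CPM and to 1738 CPM. Surrounding 3057E lay inside the range of the early surrounding libraries for Zmat3, Eda2r and Aen and for the OPC sum. The part of this mixture in the levels of the p53 targets was not tested.

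In late glioma the libraries were read 1 by 1, as a description. Eda2r, Aen, Sesn2 and Zmat3 were lower in each of 3054A, 3054B and 3054C than in any of the 8 earlier gliomas. The mean of the 8 earlier gliomas was 11.2 times the mean of these 3 for Eda2r, 3.08 times for Cdkn1a, 3.01 times for Aen, 2.43 times for Sesn2, 2.15 times for Zmat3, 2.12 times for Ccng1 and 1.93 times for Bax. It was 1.11 times for Phlda3 and 1.065 times for Mdm2. For Cdkn1a that mean includes 3108C at 354 CPM, where the other earlier gliomas stood at 21.1 to 131 CPM and overlapped with the late ones. Trp53 went the other way and lay above all 8, with a mean of 1.82 times theirs. Over all 16494 genes tested in glioma, 8.23% lay below all 8 in these 3 libraries and 10% above, and nothing is read from the counts of 4 and 1 members, because such values chose them.

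Glioma 3057E differed from the other 3 late gliomas. It was inside the range of the 8 earlier gliomas for 8 of 10 members and below it for Zmat3 and Eda2r, at 0.685 and 0.516 of their mean. Sesn2 was at 0.940, Bax at 0.884 and Aen at 0.739 of that mean, and Trp53 at 0.945, but Ccng1 was at 0.687 and Cdkn1a at 0.337, close to the 0.324 of the other 3. Cdkn1a was inside the range through asymptomatic 3228D at 21.1 CPM. The 2 sorted libraries of 3057E were also close to each other in some markers, unlike those of the other late tumours. Microglia markers summed to 2639 CPM in glioma and 2435 CPM in surrounding cells, OPC markers to 11302 and 8788 CPM and mitosis markers to 265 and 298 CPM. Other markers of 3057E were far apart. Oligodendrocyte markers summed to 207 CPM in glioma and 3447 CPM in surrounding cells, and endothelial markers to 5.96 and 79.3 CPM. The part of this mixture in its target levels was not tested. With all 4 late libraries, edgeR called 1 of 10 members lower and 0 higher in late against early glioma (0.0728% of genes lower, 0.200% higher). In late against asymptomatic glioma it called 0 (0.158%). Nothing is read from these counts. The fold changes over all 4 late libraries against the early stage ran from -2.47 ± 0.64 for Eda2r and -2.13 ± 0.56 for Cdkn1a to -0.12 ± 0.15 for Mdm2, with 0.72 ± 0.23 for Trp53.

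**Figure D3:**
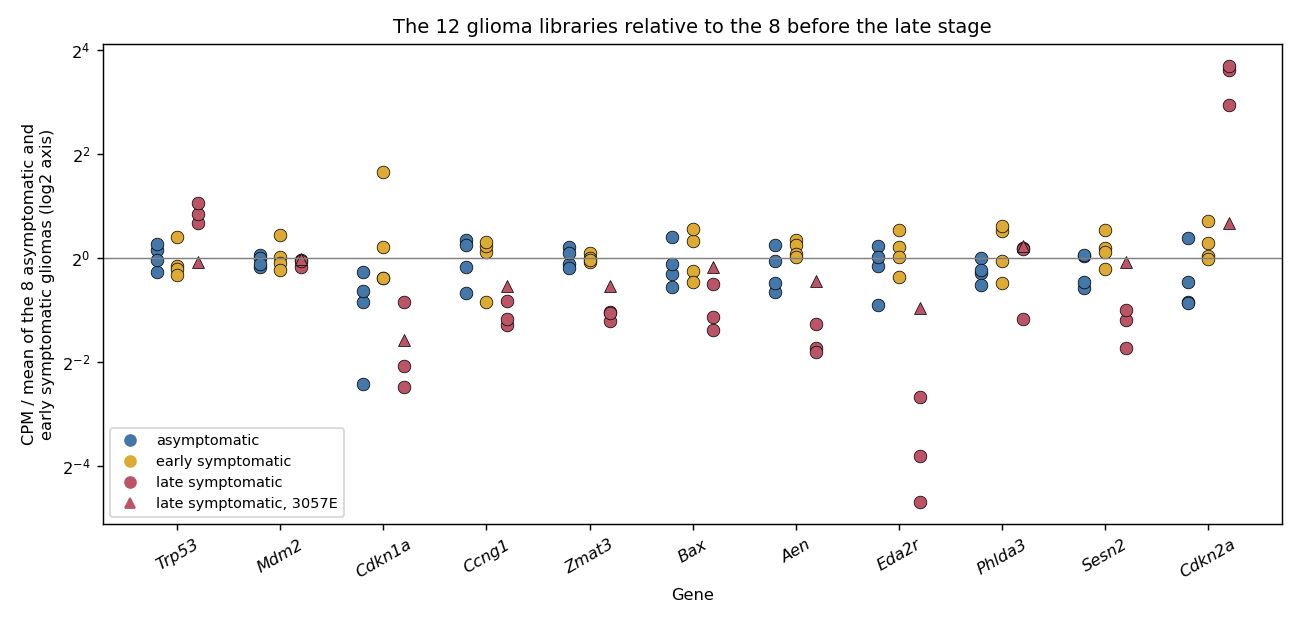
CPM of each glioma library divided by the mean of the 8 asymptomatic and early symptomatic gliomas, on a log2 axis, for the 10 genes and Cdkn2a, with 3057E as a triangle. Eda2r falls lowest in 3054A, 3054B and 3054C, Trp53 and Cdkn2a lie above the line there, and 3057E lies inside the range of the earlier gliomas for 8 of the 10.

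Cdkn2a, whose Arf product inhibits Mdm2 and whose Ink4a product inhibits Cdk4 and Cdk6, followed the same division of libraries. Gene counts do not separate its 2 products. It stood at 6.09, 14.2, 5.97 and 7.88 CPM in asymptomatic, 13.3, 11.1, 10.8 and 17.9 CPM in early and 83.5, 132, 141 and 17.4 CPM in late glioma, so that 3054A to 3054C lay above all others and 3057E among the early ones. Surrounding cells held 6.03, 6.83, 2.09 and 2.26 CPM, then 3.95, 6.24, 5.54 and 7.74 CPM, then 9.47, 23.2, 14.1 and 13.5 CPM. Before the late stage Cdkn2a was higher in glioma than in surrounding cells (1.08 ± 0.35, adjusted p = 0.0241). Late against asymptomatic glioma differed by 3.45 ± 0.54. Mitosis markers summed higher in 3054A to 3054C than in late glioma 3057E, as given above. These sums also lay above the early glioma range of 632 to 1103 CPM. Only 3054A, at 3824 CPM, lay above the asymptomatic glioma range of 820 to 2032 CPM. Gliomas 3054B at 1918 CPM and 3054C at 1931 CPM lay inside it. The part of proliferation in the target levels was not tested.

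The direction of the glioma to surrounding ratio split the tumours in the same way for some members. In 3054A, 3054B and 3054C the ratio was below 1 in 3 of 3 pairs for Cdkn1a, Sesn2, Ccng1, Bax, Aen and Mdm2. In the other 9 pairs it was above 1 in 9 of 9 for Sesn2, Ccng1, Bax and Aen, in 8 of 9 for Cdkn1a and in 3 of 9 for Mdm2. Eda2r and Phlda3 were below 1 in 1 of the 3 pairs and reached 1.40 and 2.25. Zmat3 was above 1 in all 12. Late glioma enters these ratios, so they are a description too, and the surrounding cells contribute: late surrounding Cdkn1a in the 3 tumours stood at 129, 261 and 172 CPM, and of the 8 earlier surrounding libraries 3108C alone, at 217 CPM, reached these levels.

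**Figure D4:**
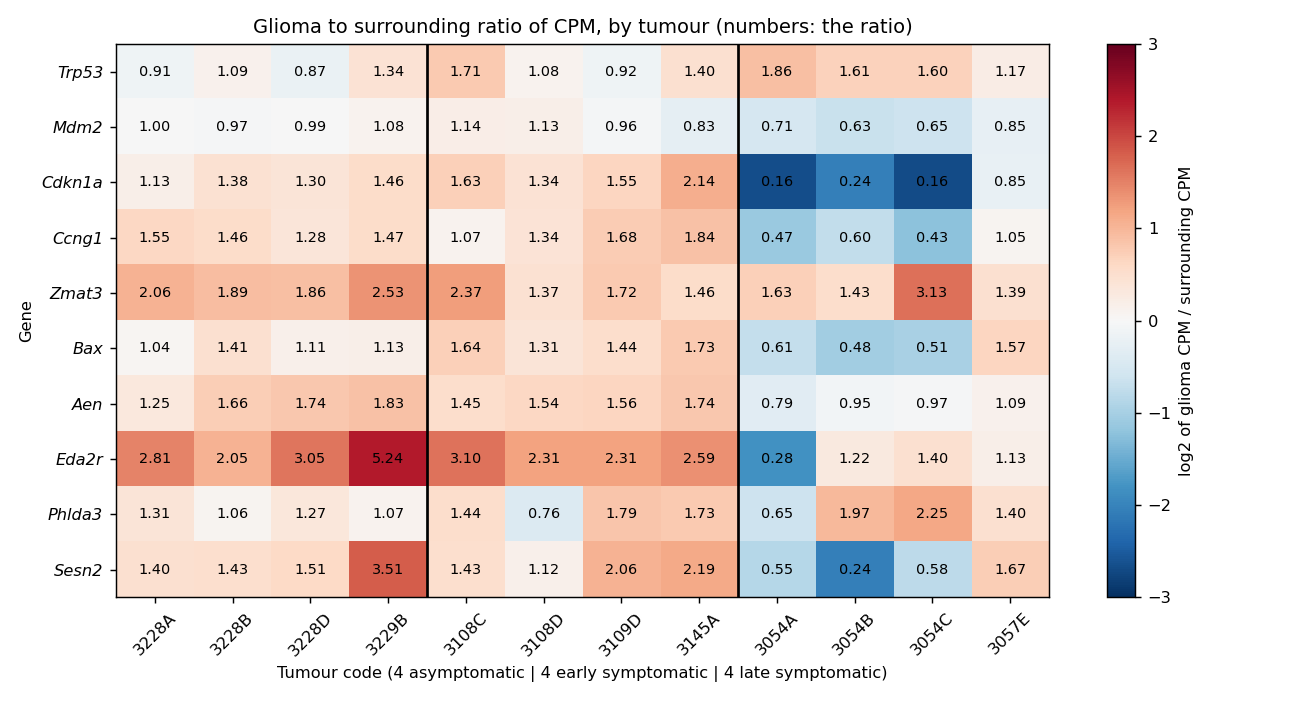
Glioma to surrounding ratio of CPM for each gene (rows) and tumour (columns, grouped by stage), with colour on a log2 scale and the ratio printed in each cell. Cdkn1a reaches 0.156 at its lowest among the late pairs and lies between 1.13 and 2.14 in the 8 earlier pairs, while Zmat3 is above 1 throughout.

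The order of the 6 groups by mean differed between members. Early glioma ranked first for Cdkn1a, Ccng1, Bax, Aen, Eda2r, Phlda3 and Sesn2, asymptomatic glioma for Zmat3, late glioma for Trp53 and late surrounding cells for Mdm2. Late glioma ranked last for Mdm2, Cdkn1a, Ccng1, Bax and Aen. Groups next to each other in this order overlapped in 5 of 5 cases for 9 members and in 4 of 5 for Zmat3. The exception was the step from early glioma (211 ± 11.1 CPM, SD, n = 4) down to early surrounding cells (126.5 ± 23.1 CPM).

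The wider pathway was followed through 50 other p53 regulators and targets, in a list also made with earlier results known. Before the late stage 8 of 48 tested genes were higher in glioma and 10 lower, beside 7.85% and 18.6% of all genes, with a median of 0.06 against 0.06 over all genes tested. The 3 higher ones with the smallest p were Ppm1d, a phosphatase that shuts off p53 (0.46 ± 0.12, adjusted p = 0.00579), Plk2, a polo-like kinase (0.82 ± 0.21, adjusted p = 0.00597), and Gtse1, which moves p53 out of the nucleus (1.23 ± 0.33, adjusted p = 0.0069). The 3 lower ones were Btg2, an antiproliferative early response gene (-3.71 ± 0.37, adjusted p = 2.55e-07), Pltp, a phospholipid transfer protein (-4.19 ± 0.56, adjusted p = 5.52e-06), and Plk3, a stress kinase (-2.27 ± 0.31, adjusted p = 7.53e-06). By role, regulators rose in 4 of 12 cases and fell in 0, arrest genes rose in 2 and fell in 3 of 7, and cell death genes rose in 1 and fell in 3 of 11. Of the genes of DNA repair 0 of 7 were called, and of metabolism and other targets 1 rose and 4 fell of 11. The lower genes moved with the microglia and immediate early markers given above, whose part was not tested.

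Across stages 1 test of the wider list passed outside late glioma. Btg2 rose from early to late surrounding cells (1.85 ± 0.35, adjusted p = 0.0275), the only one of 47 called there, beside immediate early sums above the early range of 1039 to 2220.1 CPM in 3 of the 4 late libraries. For the late against asymptomatic and the early against asymptomatic surrounding cells 0 of 47 were called, and 0 of 46 for early against asymptomatic glioma. In glioma 3054A to 3054C, Trp53inp1, Ei24, Ak1 and Tap1 lay below all 8 earlier gliomas and Cop1, Cdkn2a, Ccng2 and Siva1 above, 8.7% of 46 in each direction, close to the shares of all genes given above. Trp53inp1, a stress protein that helps p53 act, stood at 41.1 to 61.1 CPM in these 3 against 104 to 190.2 CPM in the 8 earlier gliomas and 128.5 CPM in 3057E.

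Likeness to the targets was measured over the 12 glioma libraries as Pearson's r with the mean standardized log2 level of the 9 target genes, among 9999 genes outside the lists. These coefficients are given as a description without a p, since 3 late libraries form a cluster of their own. Most alike were Slc19a2 (r = 0.967), Nell2 (0.932), Sec22c (0.931), Panx1 (0.914) and Fndc10 (0.912). Most opposite were Abhd18 (r = -0.963), Plekha2 (-0.905), Paip2 (-0.901) and Cox17 (-0.889). Within the 8 earlier gliomas alone r was 0.940 for Slc19a2, 0.945 for Sec22c, 0.601 for Panx1 and -0.898 for Abhd18. Slc19a2, a thiamine transporter, stood at 7.77 to 11.2 CPM in 3054A to 3054C, 18.7 CPM in 3057E and 12.7 to 26.5 CPM in the earlier gliomas.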

How the data were processed

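RNA from sorted glioma and surrounding cells of 12 tumours was sequenced in 24 libraries made with a CORALL total RNA kit on polyA RNA, per the labels' protocols. The deposited table gives expected counts for each gene, which the authors estimated with STAR 2.7.5c and RSEM 1.3.1 for GRCm38, as the submitters' processing notes say. The annotation release, the strand setting and the use of molecular identifiers are not given in the sources used here. Of the gene identifiers 98.6% were found in GENCODE M21, from which coordinates were taken, and 13.2% to 16.5% of a library's values had decimals.

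Rounding to whole counts shifted a library total by at most 95.2. The robust quasi-likelihood test of edgeR 4.0.16 (R 4.3.3) was run on TMM-scaled libraries with group means as terms, after filterByExpr at a minimum count of 10. A gene was called at a Benjamini-Hochberg adjusted p under 0.05, taken over every gene tested. Standard errors were derived from the F statistic. Stage contrasts used the 12 libraries of 1 population and population contrasts all 24. No libraries of a group were copies (lowest chi-square per degree of freedom 22.2). The fits were tested on simulated data.

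The members, gene lists, tests and naming rule were chosen with earlier results of these data known. Of the wider pathway list, up to 3 called genes per comparison and direction with the smallest p were named, with Cdkn2a, and the 5 genes most alike and 5 most opposite to the targets whose log2 CPM averaged 3 or more, of which 1 is not reported here. The labels give both libraries of a code to 1 animal, which pairs them. Deviations of the 2 libraries correlated at 0.0247 for 3109D and 0.042 for 3108D, and at 0.0778 to 0.482 for the other codes. With the codes exchanged, glioma 3108D correlated with surrounding 3109D at 0.466, and glioma 3109D with surrounding 3108D at 0.358. Alternatives were DESeq2 1.42.0, voom with sample weights in limma 3.58.1, size factors of DESeq2 in edgeR, other filters, 1 fit of all libraries, the tumour code as a block, single stages, and tumours left out. Figures were drawn with matplotlib.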

Additional observations from a re-analysis of the deposited data

Results flagged for a closer look

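Phlda3 in late glioma 3054A stood at 18.2 CPM, far from the other 3 late gliomas at 46.2 to 48.3 CPM, with a gap of 0.952 of the group's whole range on the log2(CPM + 1) scale. Cdkn1a in surrounding cells of 3108C stood at 217 CPM, far from the other early surrounding libraries at 55.9 to 64.4 CPM, with a gap of 0.896 of the range. These are 2 of 60 groups of 4 libraries examined, and chance marks about 1 group in 20.

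Cdkn1a was lower in glioma than in surrounding cells in 4 of 4 late pairs (log2 fold change -2.03 ± 0.62, SE) and higher in 8 of 8 earlier pairs. The difference between the stages was not tested, because late glioma values chose the genes.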

How the results depend on the processing

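Glioma against surrounding cells before the late stage gave 5 members with DESeq2 and with limma voom, which called 5563 and 7599 of 18810 genes. It also gave 5 with the tumour code as a replicate block, as coded and with the doubtful codes exchanged, given here without such a share. It gave 3 with DESeq2 size factors, 1 without a filter on low counts, 2 with a minimum count of 50, 1 without tumours 3108D and 3109D, 3 over all 3 stages, 1 in the asymptomatic and 1 in the early stage alone, and 1 to 5 with each tumour left out. The calls of Zmat3 held in 23 of 23 alternatives, those of Eda2r in 16, Ccng1 in 11, Aen in 10 and Sesn2 in 9. Late against early surrounding cells gave 0 members, but 1 with DESeq2, 5 with voom, 1 in the fit of all 24 libraries and 0 to 3 with a tumour left out. Late against asymptomatic surrounding cells gave 0, but 1 with DESeq2, 3 with voom and 0 to 4 with a tumour left out. The values of the late glioma contrasts chose the genes, and nothing is read from their counts. Late against early glioma gave 1, but 6 with DESeq2 (989 of 16494 genes called) and 7 with voom (2613). It gave 2 without a filter, 0 without 3108D and 3109D, and 0 to 8 with a tumour left out (8 without 3057E, 0 without any other). Late against asymptomatic glioma gave 0, but 3 with DESeq2 (578 of 16494 genes called) and 6 with voom (2989). It gave 1 without a filter, 1 with a minimum count of 50 and 0 to 6 with a tumour left out (6 without 3057E). The cause was not tested, beyond fewer libraries or other genes in a fit. The 3 comparisons without late libraries other than the first gave 0 in every alternative run. No called result reversed. Under DESeq2, voom, without 3057E and without 3108D and 3109D, 7 of 50 member results of 5 comparisons changed sign, 0 of them called and none above 0.147 in size: Mdm2 before the late stage, and Trp53, Ccng1, Zmat3 or Bax between stages.

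Over all genes, calls before the late stage numbered 4975, with 2536 to 8700 over the alternatives. For late against early they numbered 260 in surrounding cells (0 to 5193) and 45 in glioma (2 to 2912), and for late against asymptomatic 0 (0 to 4106) and 26 (0 to 2989). A stage contrast could not be fitted with the block, since a tumour has 1 stage. The number of libraries, 4 a group, limits the precision of stage contrasts.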
